A study of Gallus gallus with 4 samples.

Results

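The cytoplasmic ribosomal protein genes were taken by name: every gene whose symbol was RPL or RPS followed by a number, with an optional letter suffix and without the RPS6K kinases. This rule found 63 of 21328 listed genes, 38 of the large subunit (RPL) and 25 of the small subunit (RPS). Of the 21328 genes, 8937 were listed by an Ensembl identifier alone, so any ribosomal protein gene among them was not counted, and RPS19 was not among the names. The stalk proteins RPLP0, RPLP1 and RPLP2, the ubiquitin-like fusion FAU, RACK1 (listed as GNB2L1) and the L1 paralogues RPL22L1, RPL26L1 and RPL7L1 fall outside the rule and are given separately.

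The cells came from chicken (Gallus gallus) embryos with 4, 7, 10 or 13 somites (4S, 7S, 10S, 13S), from which the trunk from the third somite backwards was kept. At least 4 embryos, with no treatment or genetic change named in the labels, were pooled for each stage and sequenced as 1 droplet library with 3′ counting of unique molecular identifiers (UMIs), each of which stands for 1 captured RNA molecule. Stage and library therefore cannot be told apart, and differences between stages have no replicate check. Cells were grouped by gates, a gate being all cells of a library with at least 2 UMIs of 1 marker gene, and compared with all other kept cells of the same library. Of the 9 gate genes, TBXT marked axial progenitors and notochord, MSGN1 presomitic mesoderm, and MEOX1 somite and part of the presomitic mesoderm. The others were HAND2 (lateral plate), CHRD (axial mesoderm), PAX6 (neural), TFAP2A (ectoderm), SOX17 (endoderm and endothelium) and LMO2 (blood and endothelium).

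A ribosome consists of ribosomal RNA and a copy of each ribosomal protein, and its subunits are assembled largely in the nucleolus. The messenger RNAs of these proteins begin with an oligopyrimidine tract through which mTOR signalling adjusts their translation, so that a cell can make the parts in step. MYC raises transcription of many of these genes and of the factors that assemble ribosomes. In embryos, loss of single ribosomal proteins can give tissue-restricted defects, as with Rpl38 in the axial skeleton of the mouse.

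The files held 27391 cells, of which 25379 had at least 2500 UMIs and at most 7.5% mitochondrial UMIs and were kept. All 2012 cells left out were from 7S. The kept cells numbered 4025, 5909, 8669 and 6776 at 4S, 7S, 10S and 13S, with a median of 8849, 3758, 7182 and 7432 UMIs per cell, so 7S was the shallowest library. Of 27318 distinct barcodes, 73 occurred in 2 or more libraries. The gates held from 22 to 2381 cells per library, apart from PAX6 at 4S with 17 cells, while 8960 cells passed no gate and 4502 passed more than 1. Every tested marker of the gate's own tissue was higher in the gate at an edgeR adjusted p under 0.05 in the TBXT, MEOX1, CHRD, PAX6, TFAP2A, SOX17 and LMO2 gates, as were 4 of 5 markers in the MSGN1 gate and 5 of 6 in the HAND2 gate. The gates overlapped, since 87.8% of CHRD cells also passed TBXT and 45.0% of MSGN1 cells did. Of the TBXT cells 29.7% passed MSGN1. All 5 MSGN1 markers were called higher in the TBXT gate, with a sum of 736–1009 CPM against 334–499 CPM elsewhere. The TBXT gate therefore also held presomitic cells, and calls in overlapping gates are not independent.

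The 63 genes took from 21.8% to 26.4% of all UMIs. Their summed share was 25.5%, 21.8%, 25.7% and 26.4% in the libraries of 4S, 7S, 10S and 13S. The exact 95% binomial intervals, which cover counting error only, ran from 25.49% to 25.52% at 4S and from 21.82% to 21.85% at 7S, and were as narrow at 10S and 13S. The low value at 7S was shared by both subunits: RPL genes took 15.9, 13.7, 16.0 and 16.4% of UMIs in the 4 libraries in stage order, and RPS genes 9.61, 8.16, 9.75 and 10.0%, at a ratio of RPL to RPS UMIs of 1.65, 1.67, 1.64 and 1.64. Among cells the share had a median of 25.3, 21.6, 25.4 and 26.0% and a standard deviation of 2.19, 2.08, 2.13 and 2.59 percentage points, so single cells of different libraries overlapped.

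The share was higher in deeper cells of every library, and 7S was lowest at each depth that it reached. In cells with 2500 to 4000 UMIs the share was 24.1%, 21.3%, 24.2% and 25.3% at 4S, 7S, 10S and 13S. In cells with 8000 to 12000 UMIs it was 25.4%, 23.4%, 26.2% and 26.7%. Across the cells of a library the correlation of the share with log UMIs was 0.230, 0.241, 0.339 and 0.283, a description over cells that share a library. The mitochondrially encoded genes took 2.52, 2.70, 4.39 and 4.90% of UMIs in the same order. With these genes left out of the total, the summed share was 26.2%, 22.4%, 26.9% and 27.8%. In the absence of replicates the log2 ratio of 13S over 4S, 0.05, is a difference between 2 libraries. From 0.0521 it moved to 0.0350 among cells with 4000 to 8000 UMIs, 0.0877 without the mitochondrially encoded genes and 0.0715 with the 9 gates weighted equally.

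**Figure D1:**
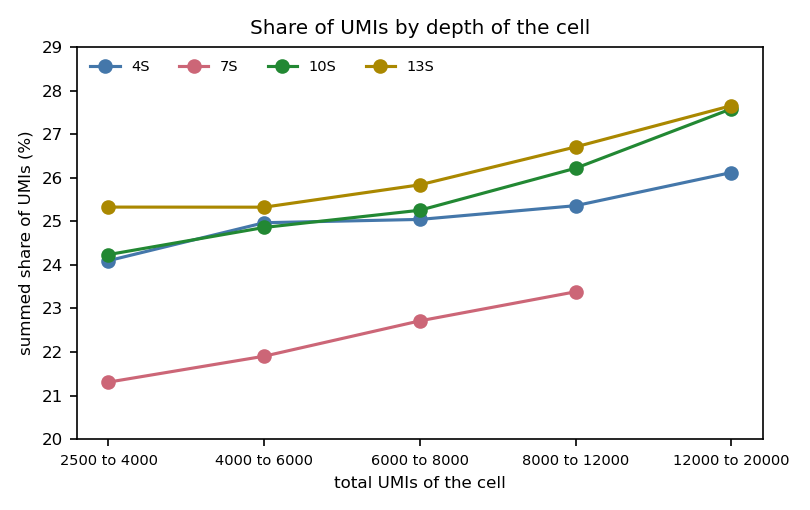
Summed share of UMIs of the ribosomal protein genes (percent, y axis) by total UMIs per cell (binned, x axis), with 1 line per library. The 7S line lies below the other 3 in each bin that it reaches.

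A pair of members were nearly absent: RPS26 at a mean of 0.518 UMIs per 1000000 UMIs (CPM) and RPL3L, a striated-muscle paralogue of RPL3 in mammals, at 0.626 CPM. The other 61 had means of 133 CPM or more, among them RPS20 (12869 CPM), RPS15A (7968 CPM) and RPL39L (7900.1 CPM). These means come from counts of 3′ ends not divided by transcript length. They describe how many UMIs stand behind each gene, not which gene has more mRNA. RPL39L and RPS27L bear the names of paralogues of RPL39 and RPS27, neither of which was among the names, and near-identical copies could have shared reads, so which gene these counts stand for is uncertain.

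From 4S to 13S few members differed by much. At 13S, 2 of 61 members over 10 CPM were at least 25% above 4S and 0 were at or below 0.8 of it, against 13.7% and 17.8% of all 6386 genes over 10 CPM. RPS27L, a paralogue of RPS27 that is induced by p53 in mammals, had 111, 122, 137 and 161 CPM at 4S, 7S, 10S and 13S. Its exact 95% Poisson interval was 108–114 CPM at 4S and 158–165 CPM at 13S, for counting error only. It was the one member higher at each later stage, a pattern found in 5.25% of all genes. RPL39L, in mammals a paralogue of RPL39 best known from testis, had 6711, 7960.3, 8505 and 8423 CPM. RPL23, a large-subunit protein that binds MDM2 when free, had 7179, 5977, 8368 and 8679.7 CPM. Among the lowest ratios of 13S to 4S were those of RPL38 (7310.2, 8481, 6749.6 and 6275 CPM) and RPL5 (1529, 1334, 1397 and 1349 CPM). Neither was at or below 0.8 of its 4S level, and no test across stages was possible.

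The 7S library differed by member, and not only in the sum. Against the mean of 4S and 10S, 31 of 61 members were at or below 0.8 at 7S and 2 were at least 25% above it, where 9.94% and 25% of all genes were. The median ratio was 0.796 over the members and 1.07 over all genes. The 3 members with the lowest and the 3 with the highest ratio are given here, chosen after their values were seen. RPS7, a small-subunit protein needed for rRNA processing, had 1969, 930.3, 1913 and 2136 CPM at 4S, 7S, 10S and 13S, a ratio of 0.479. RPL10A, which in mouse cells marks ribosomes that translate a subset of mRNAs, had 3105, 1487, 2752 and 3173 CPM. RPS3A, a small-subunit protein, had 3229, 1805, 3183 and 3627 CPM. All 3 were lowest at 7S. In the opposite direction RPS15A had 7051, 9657, 7494 and 7671 CPM, RPS29 had 3383, 4156, 3217 and 3247 CPM and RPL38 had 7310.2, 8481, 6749.6 and 6275 CPM, so 7S was their highest library.

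Of the 61 members, 49 kept their side of 1 in every gate. In all, 43 were below 1 at 7S in each of the 9 gates and 6 were above 1 in each, and RPS7 ranged from 0.442 to 0.543 over the gates. Ribosomal components outside the rule also went both ways at 7S. RPLP1, an acidic protein of the stalk that recruits elongation factors, had 17399, 28141, 19929.6 and 18122 CPM in stage order, highest at 7S. FAU, which encodes a ubiquitin-like protein fused to a small-subunit protein, had 1123, 593, 1269.7 and 1495 CPM, lowest at 7S. The 7S library is also the one with the fewest UMIs per cell and with the cells left out by the filter, and the part of these in the pattern was not tested. Counts of members called in the gates are also given without 7S.

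**Figure D2:**
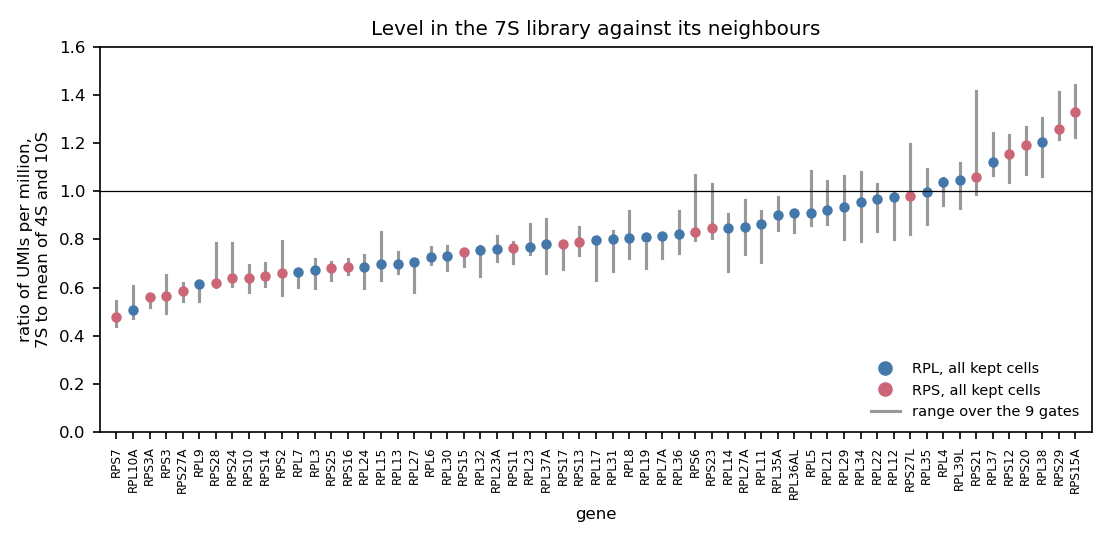
Ratio of the level at 7S to the mean of 4S and 10S (y axis) for the members over 10 CPM that are reported here, with points for all kept cells and grey lines for the range over the 9 gates. RPS7 has the lowest ratio (0.479) and RPS15A the highest (1.33), and most members lie below 1.

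Between tissues the summed share differed less than between 7S and the other libraries. Within a library the highest and lowest gate lay 2.46, 1.79, 1.97 and 2.09 percentage points apart in stage order. Averaged over the 4 libraries, the order ran from CHRD (26.0%) through TFAP2A (25.6%), MSGN1 (25.3%), HAND2 (25.3%), TBXT (25.2%), PAX6 (24.96%), SOX17 (24.8%) and LMO2 (24.7%) to MEOX1 (24.5%). Every gap between neighbours in this order was smaller than its own standard deviation over libraries, so no neighbouring pair was separated. A share is relative to all UMIs, so the amount of ribosomal protein mRNA per cell was not measured, and no p-value is given for this sum.

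Against the other cells of the same library, 4 gates were higher in all 4 libraries. The CHRD gate had 26.7%, 22.7%, 26.7% and 27.9% at 4S, 7S, 10S and 13S, against 25.4%, 21.8%, 25.7% and 26.4% in the other cells, a difference of 1.16 ± 0.250 points (SD, n = 4). The MSGN1 gate had 26.2%, 22.4%, 25.9% and 26.8%, against 25.2%, 21.7%, 25.7% and 26.3%, a difference of 0.597 ± 0.291 points (SD, n = 4). The TBXT gate had 25.7%, 22.3%, 25.9% and 26.7%, against 25.3%, 21.6%, 25.6% and 26.3%, a difference of 0.440 ± 0.172 points (SD, n = 4). The HAND2 gate, the last of the 4, differed by 0.392 ± 0.395 points (SD, n = 4), but by -0.0489 ± 0.477 points with other cells matched on UMIs, when it was higher in 2 libraries and lower in 2. For the CHRD, MSGN1 and TBXT gates the depth-matched differences were 1.48, 0.524 and 0.292 points. In TBXT cells that passed no other gate, set against cells of exactly 1 other gate, the difference was -0.0383 points and was positive in 1 library. In CHRD cells of no other gate, 11 to 48 per library, it was 0.908 points and positive in all 4. The CHRD difference was 0.579 points with the gate at 1 UMI and 0.668 points with gates set on thinned cells.

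The other gates had differences that changed sign between libraries. The LMO2 gate differed by -0.228 ± 0.218 points and the MEOX1 gate by -0.426 ± 0.478 points (SD, n = 4 for each), each lower in 3 libraries and higher in 1. With other cells matched on UMIs the LMO2 difference was -0.323 ± 0.265 points (SD, n = 4), lower in all 4 libraries. With gates set on thinned cells it was -0.230 points, again lower in all 4. With the gate at 1 UMI it was 0.0741 points, higher in 3 libraries and lower in 1. The TFAP2A gate had 24.2%, 22.7%, 27.3% and 28.1%, against 25.5%, 21.8%, 25.7% and 26.3% in the other cells, lower at 4S and higher at the 3 later stages. The PAX6 and SOX17 gates differed by 0.0920 ± 0.504 points and -0.111 ± 0.570 points, each higher in 2 libraries and lower in 2. Depth differed with the gate: at 4S the median was 11714 UMIs in TFAP2A cells and 8816 in the others, and 6792 in CHRD cells and 9024 in the others.

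**Figure D3:**
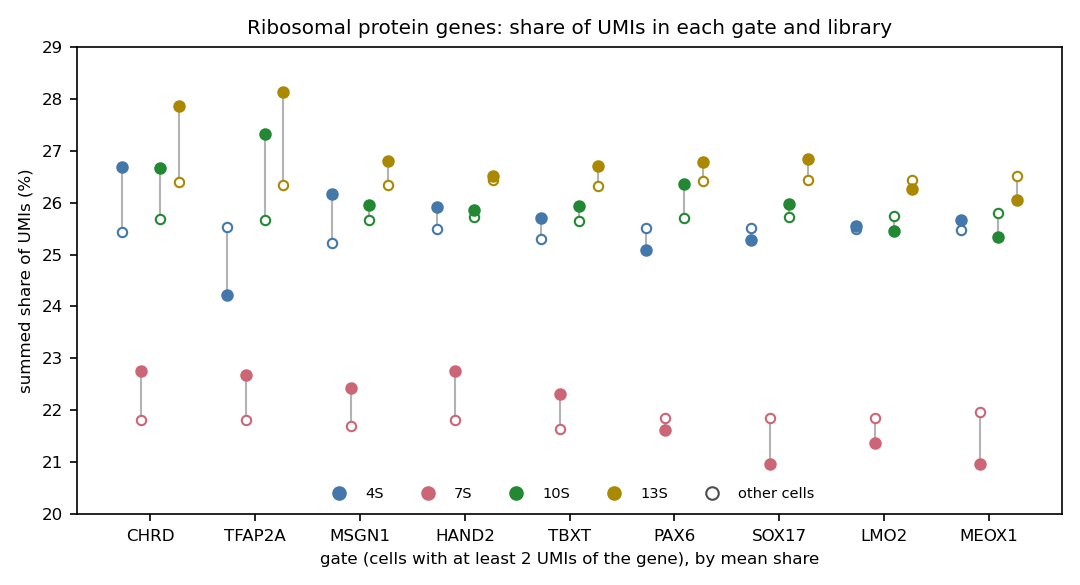
Summed share of UMIs (percent, y axis) in each marker gate and in the other cells of the same library, with filled points for the gate and open points for the other cells, and 1 colour per library. The gates differ by less than 7S differs from the other libraries.

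Single members were then tested in each gate on the summed UMIs of gate and other cells, with the library as a block (edgeR, adjusted over all genes tested). The 4 libraries are 4 stages, so the error is the spread of the gate difference over stages. Values per library are given in the order 4S, 7S, 10S and 13S, and folds are log2 differences on the TMM scale. Differences were small. Over the 9 gates the highest mean level of a member was from 1.07 to 1.74 times the lowest, with a median of 1.14, and in 53 of 61 members it was less than 25% above the lowest. Of the 61, 52 were called in at least 1 gate, 14 of them higher in one gate and lower in another, and 11 in none. RPS27L had the widest spread (206 CPM in the SOX17 gate, 119 in TBXT), followed by RPS20 (19606 CPM in SOX17, 11742 in MEOX1) and RPL37 (6122 CPM in TFAP2A, 4496 in MEOX1).

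**Figure D4:**
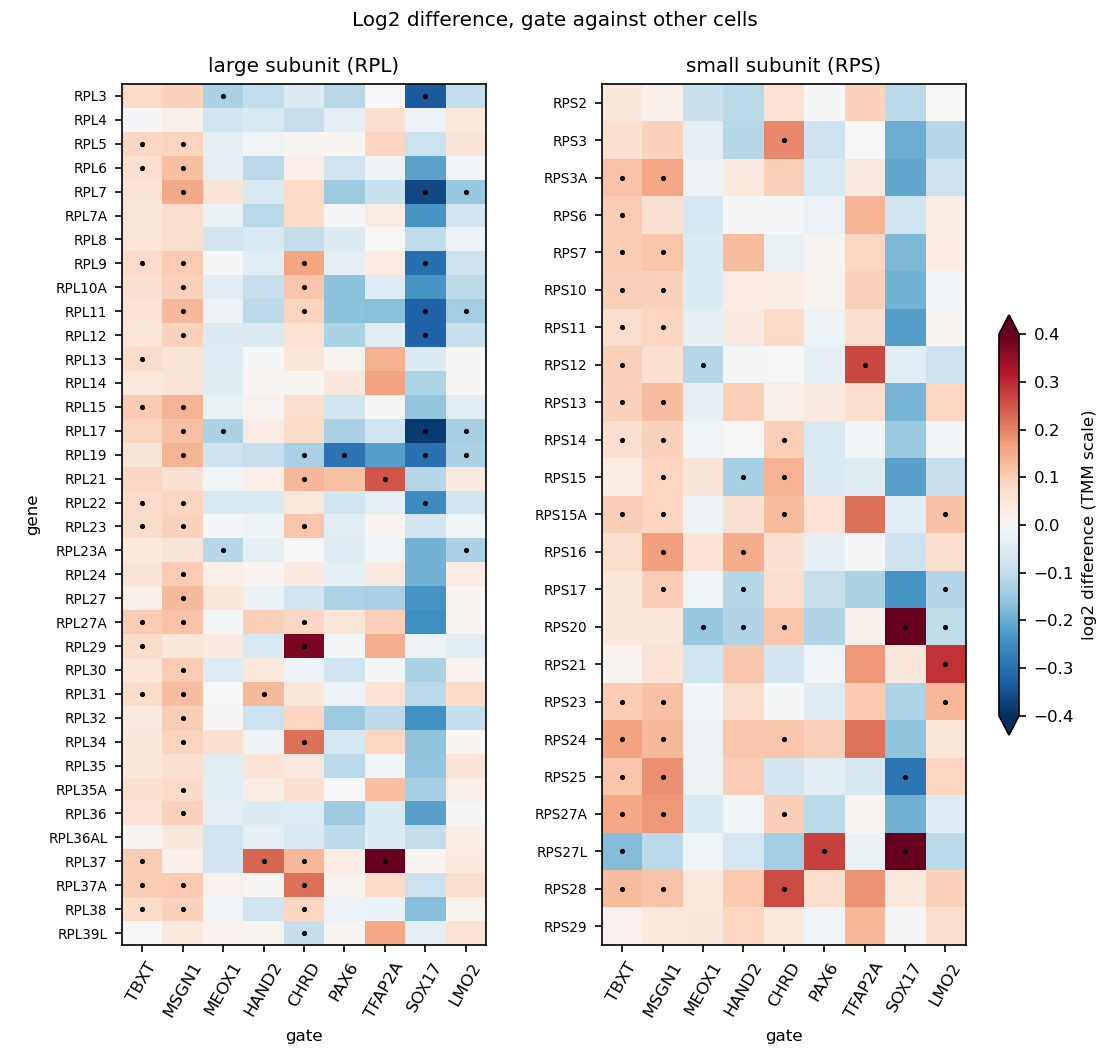
Log2 difference between gate and other cells for the members reported here (rows) in each of the 9 gates (columns), with calls at an adjusted p under 0.05 marked by a dot. On the TMM scale higher values gather in the TBXT, MSGN1 and CHRD gates and lower values in the SOX17 gate. Relative to total UMIs, TMM shifts all genes by 0.04, 0.06, 0.01 and -0.08 on the log2 scale in these gates.

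In the TBXT gate the members that passed were nearly all higher. Of 62 tested, 27 rose and 1 fell, where 10.7% of all genes rose and 10.8% fell. The median log2 difference was 0.07, against 0.01 over all genes. RPS24, a small-subunit protein mutated in some cases of Diamond-Blackfan anaemia, had 4302, 3082, 4744 and 4938 CPM in the gate, against 4023, 2669, 4462 and 4642 CPM in the other cells (log2 difference 0.16 ± 0.02 (SE), edgeR adjusted p = 0.00163). RPS27A, made as a fusion to ubiquitin, had 6553, 3964, 7002 and 7393 CPM in the gate, against 6312, 3728, 6384 and 6536 CPM in the other cells (log2 difference 0.16 ± 0.03 (SE), edgeR adjusted p = 0.00407). Both were higher in the gate in every library, while the 2 ranges overlapped. RPS27L fell, with 109, 109, 117 and 139.6 CPM in the gate, against 112, 127, 145 and 171 CPM in the other cells (log2 difference -0.17 ± 0.05 (SE), edgeR adjusted p = 0.0273). This call was lost with depth-matched cells (adjusted p = 0.0575), without 7S (0.0852), without 10S (0.176), without 13S (0.0835) and among cells of exactly 1 gate (0.328, log2 difference -0.08). Scaled to total UMIs in place of TMM, which moves the median of all genes by 0.04 on the log2 scale, 5 members rose and 1 fell (of all genes 8.3% rose and 14% fell). The number that rose was 9 without 4S, 19 without 7S, 4 without 10S and 17 without 13S.

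The MSGN1 gate had the most members called. Of 62 tested, 39 rose and 0 fell, where 12.8% of all genes rose and 15.5% fell. At an unadjusted p under 0.05 it was 49 in either direction, DESeq2 called 47 higher and 0 lower (of all genes 10.8% rose and 10.9% fell), and the median log2 difference was 0.09, against 0.01 over all genes. RPS25, which is needed for initiation at several viral internal ribosome entry sites, had 3261, 2257, 3319.6 and 3222 CPM in the gate, against 2923, 2070.1, 3132 and 2946 CPM in the other cells (log2 difference 0.18 ± 0.02 (SE), edgeR adjusted p = 0.000734). RPS27A had 6749, 3962, 6994 and 7472 CPM in the gate, against 6299, 3761, 6449 and 6619.9 CPM in the other cells (log2 difference 0.17 ± 0.03 (SE), edgeR adjusted p = 0.00131). Both were higher in presomitic cells in all 4 libraries, with overlapping ranges. On total UMIs the calls were 8 higher and 1 lower (of all genes 8.12% rose and 19.7% fell), a shift of all genes by 0.06 on the log2 scale, and on depth-matched cells 45 and 0 (of all genes 13.1% rose and 14.6% fell). The number that rose was 25 without 4S, 32 without 7S, 19 without 10S and 35 without 13S.

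The CHRD gate, the axial mesoderm, had the largest single differences among the members that rose in these 3 overlapping gates. Of 61 tested, 19 rose and 2 fell, where 13.9% of all genes rose and 14.4% fell. RPL29, a surface protein of the large subunit, had 6540.2, 6086, 6033 and 6489 CPM in the gate, against 5326, 4703, 4718 and 4784 CPM in the other cells (log2 difference 0.38 ± 0.03 (SE), edgeR adjusted p = 9.22e-07). All 4 gate values lay above all 4 values of the other cells. RPS28, a small-subunit protein near the mRNA exit, had 2569, 1682, 2916 and 3086 CPM in the gate, against 2162, 1438, 2468 and 2527 CPM in the other cells (log2 difference 0.26 ± 0.03 (SE), edgeR adjusted p = 6.7e-05), higher in every library with overlapping ranges. Among cells of exactly 1 gate neither differed at the threshold: RPL29 had a log2 difference of 0.05 (adjusted p = 0.928, edgeR) and RPS28 of -0.11 (adjusted p = 0.777, edgeR).

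The members that fell in the CHRD gate were RPL19 and RPL39L. RPL19, whose long helix bridges the subunits, had 3667, 2561, 3089 and 3289.9 CPM in the gate, against 3845, 2947, 3429 and 3622 CPM in the other cells (log2 difference -0.13 ± 0.04 (SE), edgeR adjusted p = 0.0145). RPL39L had 6173, 7436, 7962 and 7896 CPM in the gate, against 6741, 7979, 8528 and 8438 CPM in the other cells (log2 difference -0.10 ± 0.03 (SE), edgeR adjusted p = 0.0175), and an adjusted p of 0.292 with depth-matched cells, 0.0855 without 4S and 0.077 without 10S. For RPL19 it was 0.0816 without 10S and 0.156 among cells of exactly 1 gate. On total UMIs 17 members rose and 4 fell (of all genes 13.6% rose and 15.3% fell), and DESeq2 called 11 higher and 0 lower (of all genes 12.2% rose and 11.7% fell). The count of members that rose was 18 without 4S, 22 without 7S, 8 without 10S and 11 without 13S.

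In the MEOX1 gate, somites with some presomitic cells, 0 of 62 members rose and 5 fell, where 11.9% of all genes rose and 13.3% fell. DESeq2 called 0 higher and 5 lower (of all genes 9.8% rose and 10.6% fell), and 14 members had an unadjusted p under 0.05 in either direction by edgeR. RPS20, a protein of the small-subunit head, had 12259, 12932, 11375 and 10399.7 CPM in the gate, against 12689, 15283, 12683 and 11532 CPM in the other cells (log2 difference -0.15 ± 0.03 (SE), edgeR adjusted p = 0.0102). RPL3, which reaches towards the peptidyl transferase centre, had 1853, 1265, 1949 and 1984 CPM in the gate, against 2064, 1396, 2096 and 2132 CPM in the other cells (log2 difference -0.13 ± 0.03 (SE), edgeR adjusted p = 0.0069). Both were lower in the gate in each library, within overlapping ranges. Without 10S the adjusted p of RPS20 was 0.0664, and the count of members that fell was 9 without 4S, 5 without 7S, 1 without 10S and 6 without 13S. Of the 5 MSGN1 markers 3 were higher and 1 lower in this gate. They summed to 490–781 CPM against 443–632 CPM elsewhere, higher in all 4 libraries, and 18.5% of MEOX1 cells also passed MSGN1. The part of these cells in the calls was not tested.

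In the HAND2 gate, the lateral plate, 3 of 61 members rose and 3 fell, where 3.17% of all genes rose and 6.28% fell. RPL37, a zinc-binding large-subunit protein, had 5451, 6281, 4659.9 and 6190.0 CPM in the gate, against 4708, 4964, 4134 and 4889.6 CPM in the other cells (log2 difference 0.23 ± 0.04 (SE), edgeR adjusted p = 2.71e-06). RPS16, a small-subunit protein near the tRNA sites, had 3307, 2271, 3012 and 3852 CPM in the gate, against 2942, 1958, 2771 and 3314 CPM in the other cells (log2 difference 0.15 ± 0.04 (SE), edgeR adjusted p = 0.015). The lower members named by the same rule were RPS15, a head protein of the small subunit (log2 difference -0.13 ± 0.04 (SE), edgeR adjusted p = 0.0154), and RPS20 (log2 difference -0.12 ± 0.04 (SE), edgeR adjusted p = 0.0127). On depth-matched cells 0 members were called in either direction (of all genes 2.7% rose and 4.61% fell), with 1 at an unadjusted p under 0.05 and adjusted p = 0.176 for RPL37 (edgeR). The adjusted p of RPS16 was 0.156 without 4S, and without 10S that of RPS15 was 0.0886 and that of RPS20 0.138. HAND2 cells were deeper than the others, with medians of 12322, 4756, 8807 and 10202 UMIs against 8764, 3747, 7155 and 7406 in stage order. On total UMIs 11 rose and 0 fell (of all genes 3.71% rose and 5.73% fell), and DESeq2 called 4 higher and 0 lower (of all genes 2.06% rose and 3.24% fell). The count of members that rose was 1 without 4S, 1 without 7S (where 2 fell), 1 without 10S and 9 without 13S.

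In the PAX6 gate, the neural cells, 1 of 61 members rose and 1 fell, where 11.1% of all genes rose and 13.6% fell. DESeq2 called 0 higher and 1 lower (of all genes 6.02% rose and 8.08% fell), and 7 members had an unadjusted p under 0.05 by edgeR. RPL19 had 3412, 2196, 3031 and 3152 CPM in the gate, against 3837, 2958, 3433 and 3636 CPM in the other cells (log2 difference -0.30 ± 0.07 (SE), edgeR adjusted p = 0.000734), lower in each library. RPS27L had 129, 131, 163 and 219.6 CPM in the gate, against 111, 121, 136 and 158 CPM in the other cells (log2 difference 0.27 ± 0.10 (SE), edgeR adjusted p = 0.0264). The gate held 17, 154, 362 and 271 cells in stage order, so its 4S value rests on few cells. The adjusted p of RPS27L was 0.287 without 10S, 0.434 without 13S and 0.161 by DESeq2. On total UMIs 3 members rose and 1 fell (of all genes 11.7% rose and 12.7% fell). The count of members that rose was 1 without 4S, 1 without 7S, 0 without 10S and 0 without 13S. RPL19 kept its lower call whichever library was left out.

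In the TFAP2A gate, the ectoderm, 3 of 61 members rose and 0 fell, where 11.1% of all genes rose and 11.1% fell. At an unadjusted p under 0.05 it was 7 in either direction, and DESeq2 called 3 higher and 1 lower (of all genes 8.68% rose and 8.58% fell). RPL37 had 5270.1, 6321, 5923 and 6976 CPM in the gate, against 4720.4, 4961, 4085 and 4801 CPM in the other cells (log2 difference 0.40 ± 0.09 (SE), edgeR adjusted p = 0.00405). RPS12, a small-subunit protein of the beak, had 2485, 2731, 2498 and 2924 CPM in the gate, against 2182, 2404, 1966 and 2329 CPM in the other cells (log2 difference 0.27 ± 0.08 (SE), edgeR adjusted p = 0.0273). For both genes all 4 gate values lay above all 4 other values. Without 10S the adjusted p was 0.101 for RPL37 and 0.295 for RPS12, and without 13S it was 0.174 for RPS12. On total UMIs 5 rose and 2 fell (of all genes 10.5% rose and 12.8% fell), and the count of members that rose was 5 without 4S, 2 without 7S, 0 without 10S and 1 without 13S. The 3 neural crest markers FOXD3, SOX10 and TFAP2B summed to 2.05–35.0 CPM in this gate and 0.440–2.87 CPM in the other cells, and their part in the calls was not tested.

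The SOX17 gate had the members with the widest differences. Of 61 tested, 2 rose and 10 fell, where 5.82% of all genes rose and 5.91% fell, and the median log2 difference was -0.16, against -0.09 over all genes. Scaled to total UMIs, the median was -0.05 over the members and -0.003 over all genes, and 2 members rose and 8 fell. The share of all genes called on that scale was not counted for this gate, so these counts lack a background. Members with a positive difference, called or not, numbered 5 on the TMM scale and 19 on total UMIs. RPS20 had 18362, 24279, 19958 and 15823 CPM in the gate, against 12459, 14909, 12435 and 11357 CPM in the other cells (log2 difference 0.50 ± 0.09 (SE), edgeR adjusted p = 9.78e-07). RPS27L had 162, 172, 256 and 235 CPM in the gate, against 109, 121, 136 and 161 CPM in the other cells (log2 difference 0.56 ± 0.13 (SE), edgeR adjusted p = 0.000277). In both genes the gate and the other cells did not overlap. RPL17, at the mouth of the exit tunnel, had 2551, 1756, 3020.1 and 2449 CPM in the gate, against 2962, 2440.2, 3166 and 3188 CPM in the other cells (log2 difference -0.38 ± 0.09 (SE), edgeR adjusted p = 0.000621). RPL7, a large-subunit protein, had 4194, 2443, 3928 and 3838 CPM in the gate, against 4689.6, 3049, 4507 and 4873 CPM in the other cells (log2 difference -0.36 ± 0.09 (SE), edgeR adjusted p = 0.00134).

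Both lower members were below the other cells in every library, in overlapping ranges. The SOX17 gate was small, with 135, 45, 61 and 22 cells in stage order. It also held 4 higher markers of 7 listed for LMO2 cells, which summed to 147–939 CPM in the gate against 95.9–225 CPM elsewhere. Summed markers of other tissues were also higher in the gate in all 4 libraries: CHRD markers, which share FOXA2 and SHH with the SOX17 list, at 197–391 CPM against 60.4–68.5 CPM, HAND2 markers at 229–479.6 CPM against 117–188 CPM and TFAP2A markers at 403–649 CPM against 191–229 CPM. So was the sum of the TBXT markers, at 307–687 CPM against 266–357 CPM, though of these 6 genes 2 were called higher and 4 lower. Of the 7 TFAP2A markers 1 was called higher and 4 lower, with a median log2 difference of -2.13. Of the 6 CHRD markers 2 were called higher and 1 lower. Of the 6 HAND2 markers 2 were called higher and 0 lower, with a median log2 difference of -0.42. Of the SOX17 cells 23.7%, 28.9%, 27.9% and 72.7% passed another gate in stage order. The part of these in the calls was not tested. Without 10S the adjusted p of RPS27L was 0.135, while RPS20 stayed under 0.05 whichever library was left out. The count of lower members was 11 without 4S, 15 without 7S, 8 without 10S and 6 without 13S.

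In the LMO2 gate, blood and endothelial cells, 3 of 61 members rose and 8 fell, where 8.28% of all genes rose and 6.23% fell. RPS21, a small-subunit protein, had 3471, 3997, 3550.1 and 4065 CPM in the gate, against 3126, 3254, 3016 and 2936 CPM in the other cells (log2 difference 0.29 ± 0.05 (SE), edgeR adjusted p = 0.00408), with no overlap between gate and other cells. RPS23, which lies at the decoding centre, had 4913, 3930.3, 4857 and 4739 CPM in the gate, against 4474, 3783, 4421 and 4139 CPM in the other cells (log2 difference 0.13 ± 0.04 (SE), edgeR adjusted p = 0.0329). RPL7, lower in this gate, had 4364, 2786, 4131 and 4137 CPM in the gate, against 4711, 3055, 4519 and 4889.6 CPM in the other cells (log2 difference -0.15 ± 0.03 (SE), edgeR adjusted p = 0.0087). RPS23 kept its call in 4 of 15 alternatives, and lost it, among others, without 4S, without 10S and without 13S. It also missed the threshold with depth-matched cells (adjusted p = 0.148, edgeR) and by DESeq2 (adjusted p = 0.167). Without 10S the adjusted p was 0.0558 for RPL7. The erythroid markers summed to 30.2–2913 CPM in this gate and 2.34–6.63 CPM elsewhere, with HBBA at 0, and their part in the calls was not tested. The count of members that fell was 10 without 4S, 5 without 7S, 0 without 10S and 2 without 13S. RPS21 kept its higher call whichever library was left out.

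**Figure D5:**
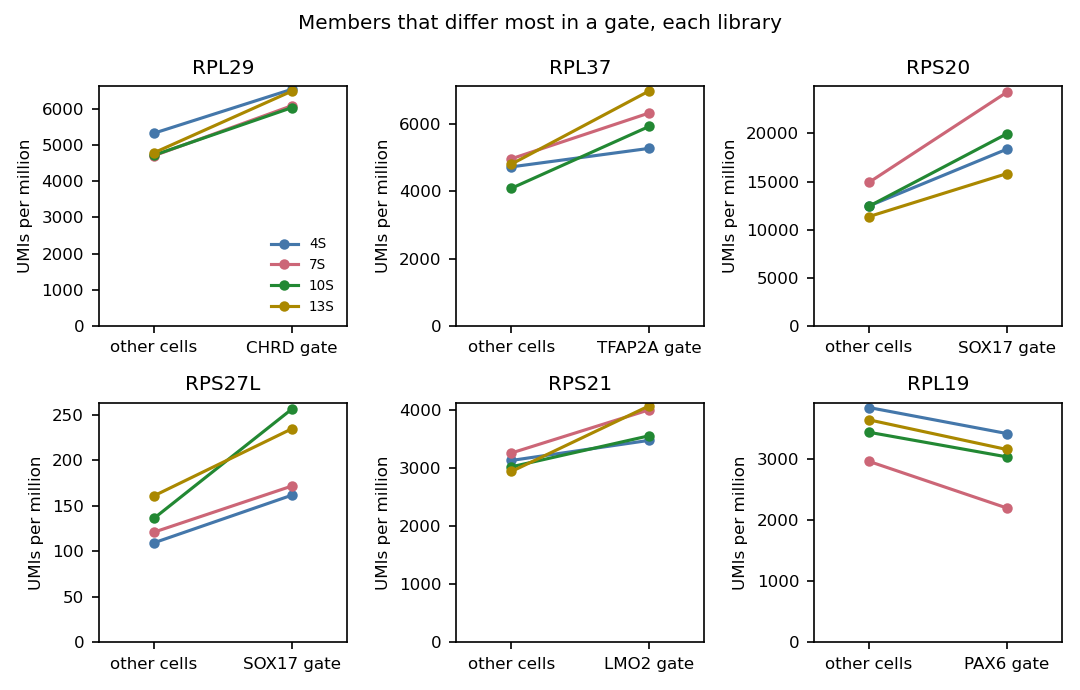
Level (CPM, y axis) of named members in the gate and in the other cells, with 1 line per library. RPL29 in the CHRD gate and RPS20 in the SOX17 gate lie above the other cells in each of the 4 libraries.

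The members with a role outside the ribosome or in particular mRNAs were called in the same gates as many other members. These calls are on the TMM scale. Scaled to total UMIs, 8 members in all were higher in the MSGN1 gate and 5 in the TBXT gate, where 8.12% and 8.3% of all genes were. RPL5 and RPL11, which bind MDM2 when free of the ribosome, were both higher in the MSGN1 gate (log2 differences 0.09 and 0.13, adjusted p = 0.0268 and 0.00553, edgeR). In all, RPL5 was called higher in 2 of the 9 gates and lower in 0. RPL11 was also higher in the CHRD gate (0.09) and lower in the SOX17 (-0.32) and LMO2 (-0.14) gates. RPL38, RPS27A and RPS14, the last lost in a human myelodysplastic syndrome, were higher in the TBXT, MSGN1 and CHRD gates, by 0.09, 0.10 and 0.10 on the log2 scale in CHRD. RPL10A was higher in the MSGN1 (0.09) and CHRD (0.11) gates. RPL22, required for T-cell development in the mouse, and RPS25 were higher in the TBXT and MSGN1 gates and lower in the SOX17 gate (-0.26 and -0.29). RPS6, the target of the S6 kinases, was called in the TBXT gate alone (0.10, adjusted p = 0.0373, edgeR), and not on total UMIs (adjusted p = 0.222).

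Genes that build or serve the ribosome did not always go with the ribosomal proteins. In the CHRD gate, where 19 ribosomal proteins rose, 16 of 23 listed ribosome biogenesis genes fell, where 14.4% of all genes fell, with a median log2 difference of -0.38 against -0.02 over all genes, and 16 fell with depth-matched cells and 16 without 7S. MYC had 33.4, 32.9, 19.1 and 15.1 CPM in the gate, against 113, 122, 65.7 and 48.8 CPM in the other cells (log2 difference -1.77 ± 0.10 (SE), edgeR adjusted p = 1.94e-08). POLR1C, a subunit of RNA polymerases I and III, had 72.4, 53.6, 68.8 and 56.3 CPM in the gate, against 127, 82.7, 97.9 and 93.2 CPM in the other cells (log2 difference -0.65 ± 0.09 (SE), edgeR adjusted p = 6.33e-05). Among cells of exactly 1 gate the log2 difference of MYC was -1.12 (adjusted p = 0.0207) and POLR1C was not called (adjusted p = 0.885). For MYC it was -0.38 with the gate at 1 UMI and -0.89 with gates set on thinned cells. Of the nuclear genes for the mitochondrial ribosome 39 of 68 fell in this gate (median -0.24), MRPS22 by 0.56 and MRPS11 by 0.54 on the log2 scale, and of the initiation factors 1 of 37 rose and 18 fell (median -0.22). Among cells of exactly 1 gate MRPS22 and MRPS11 were not called (adjusted p = 0.419 and 0.961). EIF4E3, a divergent cap-binding protein, was the initiation factor that rose (log2 difference 0.95), and EIF1B was among those that fell (-0.51). Without 10S the adjusted p was 0.0559 for EIF4E3, and EIF1B missed the threshold whichever library was left out (edgeR adjusted p from 0.059 to 0.206).

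Of the mitochondrial ribosome genes 23 of 68 also fell and 1 rose in the TFAP2A gate, where 11.1% of all genes fell (15 fell without 7S), and 16 fell and 1 rose in the PAX6 gate, where 13.6% of all genes fell (by DESeq2 9 fell, and 8.08% of all genes), with MRPS18A at log2 differences of -0.94 and -0.67. In the MSGN1 gate 15 of the 68 genes rose on the TMM scale, where 12.8% of all genes rose. TMM shifts all genes by 0.06 on the log2 scale there, and the median of these genes was 0.08. As a share of total UMIs the list summed to 10673–12604 CPM in this gate and 10838–12895 CPM elsewhere, higher in 2 of 4 libraries. Of 23 biogenesis genes 3 rose there, a share near that of all genes, and on total UMIs 2 rose and 2 fell. MYC was lower in the PAX6 (-1.78) and TFAP2A (-1.40) gates and higher in the HAND2 (1.10), LMO2 (0.70) and MSGN1 (0.42) gates, while MYCN was lower in the LMO2 gate (-0.86). Of 6 elongation genes in the MEOX1 gate 1 rose and 3 fell (1 fell without 7S), where 11.9% of all genes rose and 13.3% fell. EEF1A2, the elongation factor form known from muscle and neurons, had 19.9, 7.86, 7.94 and 2.21 CPM in the gate, against 2.95, 1.54, 1.37 and 0.538 CPM in the other cells (log2 difference 2.50 ± 0.18 (SE), edgeR adjusted p = 1.38e-05), and EEF1D had a log2 difference of -0.21. RPL22L1, the paralogue of RPL22, was higher in the MEOX1 gate (0.34), where RPL22 was not called. EEF1B2, an exchange factor for EEF1A, was higher in the TFAP2A gate (0.39).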

How the data were processed

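The deposited values were UMI counts per gene and cell, which the authors made from droplet libraries by alignment to GRCg6a with Cell Ranger 4.0.0 and counting with DropEst, and by the methods the cells were filtered for mitochondrial UMIs, depth and Scrublet doublets. Cells with under 2500 UMIs or over 7.5% mitochondrial UMIs, 2012 of 7S, were left out here, and no further doublet caller was run. The DropEst counts include intronic reads, whose share was not measured here. Gates needed at least 2 UMIs of the gate gene. UMIs were summed per library and side of a gate, giving 8 sums per gate, and tested in edgeR 4.0.16 (R 4.3.3; quasi-likelihood test, TMM, filterByExpr, library as block) with Benjamini-Hochberg adjustment over all genes tested and a threshold of 0.05. The 2 sums of a library come from the same embryos, and their deviations correlated at 0.107–0.694 in all 36 gate and library pairs, so library was kept as the pairing. DESeq2 1.42.0, other scalings, filters, gates, depth matching and leaving out each library were alternatives. Each SE is the absolute log2 difference divided by the square root of the quasi-likelihood F, so it is not an estimate separate from the test. Fits were tested on simulated data. The members and lists were chosen with earlier results of these data known. Genes named in a gate are the 2 called members with the largest difference in each direction, if all 4 libraries had that direction. The 3 largest and 3 smallest ratios of 13S to 4S and ranges over gates (mean of at least 50 CPM), the 3 highest and lowest levels, a fixed list with separate roles, and 2 companions per list and gate described were also named. Some genes that these rules name are not reported here, though they stay in the sums and counts.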

Additional observations from a re-analysis of the deposited data

Results flagged for a closer look

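Among 60 sets of 4 per-library values, more than the 53 pairs of named gene and gate, 7 had 1 library far from the other 3. About 1 in 20 would by chance, and 2 sets with a library at 0 were left out. All 7 were log2 differences of named genes. RPS24 in the TBXT gate was 0.21 at 7S and 0.09–0.10 in the others. RPL19 in the PAX6 gate was -0.43 at 7S and from -0.21 to -0.17 in the others. RPS27L in the SOX17 gate was 0.91 at 10S and 0.50–0.56 in the others. POLR1C in the PAX6 gate was 0.25 at 4S, a value from 17 cells, and from -0.47 to -0.37 in the others. MRPS22 in the CHRD gate was -0.25 at 7S and from -0.69 to -0.63 in the others, and EIF1B there was -0.15 at 7S and from -0.64 to -0.57. RPL26L1 in the MEOX1 gate was 0.0934 at 4S and from -0.00236 to 0.0114 in the others. In 4 of the 7 sets 7S was the library apart. No cause was tested.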

How the results depend on the processing

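The number of members called in the direction with more calls in the main fit was 27 in TBXT, 39 in MSGN1, 19 in CHRD, 5 in MEOX1, 3 in HAND2, 1 in PAX6, 3 in TFAP2A, 10 in SOX17 and 8 in LMO2. Members that fell were counted in MEOX1, SOX17 and LMO2, and members that rose in the other gates, with a tie in HAND2 and PAX6. Every setting below keeps that direction. In the other direction RPL19 in PAX6 and RPS21 in LMO2 each kept the call in 14 of 15 alternatives, all but that without the block. The number was 0 in each of the 9 gates without the library block, so the calls rest on the pairing within libraries (unadjusted p under 0.05 without the block: 1 member in CHRD, 1 in TFAP2A, 2 in SOX17, 1 in LMO2). It was 5 in TBXT, 8 in MSGN1, 11 in HAND2, 3 in PAX6, 5 in TFAP2A and 15 in LMO2 scaled to total UMIs. It was 2 in TBXT, 3 in MSGN1, 5 in HAND2, 6 in CHRD (where 13 fell) and 3 in PAX6 scaled to the summed ribosomal protein UMIs. It was 16 in TBXT, 27 in MEOX1, 1 in HAND2, 5 in CHRD, 0 in PAX6, 28 in SOX17 and 18 in LMO2 with no filter on low counts. It was 11 in CHRD, 0 in PAX6 (where 1 fell) and 5 in LMO2 by DESeq2. It was 42 in TBXT, 13 in HAND2 and 8 in CHRD with at least 1 UMI of the gate gene. It was 14 in TBXT, 0 in HAND2, 0 in PAX6 and 14 in LMO2 with at least 3. It was 41 in TBXT, 1 in HAND2, 18 in SOX17 and 15 in LMO2 with gates set on cells thinned to 2500 UMIs. It was 11 in TBXT, 11 in MEOX1, 0 in CHRD and 13 in LMO2 among cells of exactly 1 gate. It was 0 in HAND2 with depth-matched cells. It was 11 in TBXT with all deposited cells. Leaving out each library in turn gave 4 to 19 in TBXT, 19 to 35 in MSGN1, 8 to 22 in CHRD, 1 to 9 in MEOX1, 1 to 9 in HAND2, 0 to 1 in PAX6, 0 to 5 in TFAP2A, 6 to 15 in SOX17 and 0 to 10 in LMO2. The log2 ratio of the summed share over the other cells then ranged from 0.01997 to 0.0297 in TBXT, 0.0292 to 0.0415 in MSGN1, 0.0612 to 0.0695 in CHRD, -0.0388 to -0.0133 in MEOX1, 0.0117 to 0.0307 in HAND2, -0.00659 to 0.0136 in PAX6, 0.0230 to 0.0800 in TFAP2A, -0.0191 to 0.00762 in SOX17 and -0.0195 to -0.00810 in LMO2. The CHRD share ratio of 0.0655 became 0.0328 with at least 1 UMI, 0.0376 with thinned gates, 0.0524 among cells of exactly 1 gate and 0.0840 with depth-matched cells. The LMO2 ratio was 0.00382 with at least 1 UMI, and the TBXT ratio turned to -0.000899 among cells of exactly 1 gate. The ratio of 13S over 4S, 0.0521, was 0.0350 (cells with 4000 to 8000 UMIs), 0.0715 (the 9 gates weighted equally), 0.0662 (the gates with at least 50 cells per library weighted equally), 0.0509 (members with other ribosomal components and RPS4Y1, RPSAP58), 0.0877 (UMIs without mitochondrially encoded genes) and 0.0462 (mean of the share per cell). The count of members past the fold of 13S over 4S, 2, was 1 among cells with 4000 to 8000 UMIs and 0 with a fold of 1.5. Among named genes RPS28, CHRD turned to -0.115 (cells in exactly 1 gate), GAR1, HAND2 turned to -0.130 (at least 3 UMIs of the gate gene), RPL26L1, MEOX1 turned to -0.0222 (no filter on low counts), RPL26L1, MEOX1 turned to -0.0119 (gate on counts thinned to 2500 UMIs) and RPL26L1, MEOX1 turned to -0.0334 (cells in exactly 1 gate). Of 794 further values of named genes, 651 kept direction and side of the threshold, 137 lost the call and 1 gained it, and 41 of those lost were without the block and 19 without 10S. The cause was not tested. The gates of fewest cells, PAX6 at 4S (17 cells) and SOX17 at 13S (22 cells), limit what can be called there, and stage differences rest on 1 library each.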
